A study of Homo sapiens with 14 samples.

Results

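The clustered protocadherin genes encode cell-surface adhesion proteins of the cadherin superfamily and lie side by side on human chromosome 5 as the α, β and γ clusters. Members were the protein-coding genes whose symbols begin with PCDHA, PCDHB or PCDHG followed by a number or by the letter of a subgroup. This gave 53 genes of the 19970 protein-coding genes annotated on chromosomes 1 to 22 and X, and they run from 140786136 to 141512977 on chromosome 5 in hg38, over 726.8 kb. They comprise 13 alternate α genes (PCDHA1 to PCDHA13), 2 C-type α genes (PCDHAC1 and PCDHAC2), 16 β genes, 12 γA genes, 7 γB genes and 3 γC genes. Peaks were taken from the promoters of these genes and from the rest of the same stretch plus 100 kb on each side.

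The data are ChIP-seq of ZNF143 with the Proteintech antibody in ZNF143-FKBP HEK293T cells, an established human embryonic kidney line in which the endogenous ZNF143 gene carries a degron tag. The paper reports that this antibody also recognizes CTCF, and that its signal at CTCF sites remained after depletion of ZNF143. A peak of either list is therefore not by itself a site of ZNF143. Every sample comes from HEK_CloneZD29, which is 1 clone, and the untreated cells carry the tag as well. The untreated list stands for 4 untreated samples and the dTAG-V1 list for 4 samples treated with 0.5 µM dTAG-V1, a compound that directs the tagged protein to degradation, for 30 min. The lists hold 20429 and 35287 peaks. Each list pools its samples, so replicate error is unknown, no test between conditions was possible, and the depth of the libraries is unknown as well. The lists hold no measure of the ZNF143 protein, so they do not check its depletion.

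In neurons, each clustered protocadherin gene has a promoter of its own in front of a variable exon, and cells switch on different combinations of these promoters. The variable exons of the α and of the γ genes are spliced to constant exons shared within the cluster, whereas the β genes consist of a variable exon alone. Many of the promoters carry a conserved element built around the letters CGCT, and the clusters are a textbook case of CTCF and cohesin joining promoters to distant enhancers. CTCF is a zinc finger protein that binds DNA and halts cohesin. ZNF143 is a zinc finger activator that binds promoters through SBS motifs.

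The sequences below are those that the following paragraphs refer to. The first set shows every place between the first and the last member where the letters CGCTG are followed, after any 4 letters, by CCAAT. Capitals mark CGCTG and CCAAT, all 6 lie on the plus strand of hg38, and each is named by the nearest member.
PCDHGA1: ctgggtgcCGCTGtccgCCAATccgtggct
PCDHGA4: ctgggtgtCGCTGttcaCCAATcaggggga
PCDHGA11: ctaggcgcCGCTGctcaCCAATcagggaat
PCDHGA12: ctgagcgcCGCTGttcaCCAATcggggaga
PCDHGC3: ctgtgtgcCGCTGtcggCCAATgaagacgc
PCDHGC4: ccgggagcCGCTGtctgCCAATcgggtggt

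The second set shows CTCF hits, with the hit in capitals and 5′ to 3′ on the strand of the hit. A hit is a stretch of sequence that scores at or above the threshold of a CTCF matrix, in bits. The matrix was learned from peaks on even-numbered autosomes and reads NNNNCCACNAGGGGGCACN. PCDHA4, PCDHA7 and PCDHA13 stand for the strong hits in the variable exons of the alternate α genes, PCDHA3 for a weaker hit repeated among them, PCDHA10 for the hits before a start, and PCDHB9 and PCDHB10 for the β promoters.
PCDHA4: tctcgGTTTCCACTAGAGGGCGCCtcggat
PCDHA7: tctcgGTTTCCACTAGAGGGCGCGtccgat
PCDHA13: actcgATTTCCACTAGATGGCGCAtccgat
PCDHA3: ccacgATCACCTCCAGGTGGATGCtgcact
PCDHA10: cacctAAAGCCACCGGATGTCGCTgtcgtc
PCDHB9: tgttgGAAGCCACAAGGTGGCGCTgcagac
PCDHB10: tggtgGAGGCCACACGGTGGCGCTgcaggc

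The third is a whole peak of the dTAG-V1 list, of 293 bases, at chr5:141041193-141041485 between the α and the β genes. It is printed on the plus strand of hg38 with its CTCF hit in capitals, because it was the only peak between the first and the last member with a CTCF hit at p 1e-05.
Peak between PCDHAC2 and PCDHB1: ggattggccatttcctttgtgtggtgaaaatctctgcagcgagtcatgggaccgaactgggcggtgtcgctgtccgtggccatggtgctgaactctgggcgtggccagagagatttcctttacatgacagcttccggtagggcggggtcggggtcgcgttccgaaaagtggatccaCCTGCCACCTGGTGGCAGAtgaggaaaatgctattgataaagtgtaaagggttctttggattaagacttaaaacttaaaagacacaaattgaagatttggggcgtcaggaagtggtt

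The promoters of the clustered protocadherins were almost devoid of peaks. A promoter peak is one whose centre lies from 2 kb upstream to 1 kb downstream of the start of a protein-coding transcript. In the untreated list, 0 of 53 members had a promoter peak, against 38.9% of 19573 other protein-coding genes. In the dTAG-V1 list, 3 of 53 members (5.66%) had one, against 45.9% of the other genes. All 3 were absent from the untreated list, and 10.3% of the other genes likewise had a promoter peak in the dTAG-V1 list and none in the untreated list. The 3 genes were PCDHGA11, PCDHGC3 and PCDHGC4, so that 1 of 12 γA genes and 2 of 3 γC genes had a promoter peak, and 0 of 13 alternate α, 0 of 2 C-type α, 0 of 16 β and 0 of 7 γB genes.

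**Figure D1:**
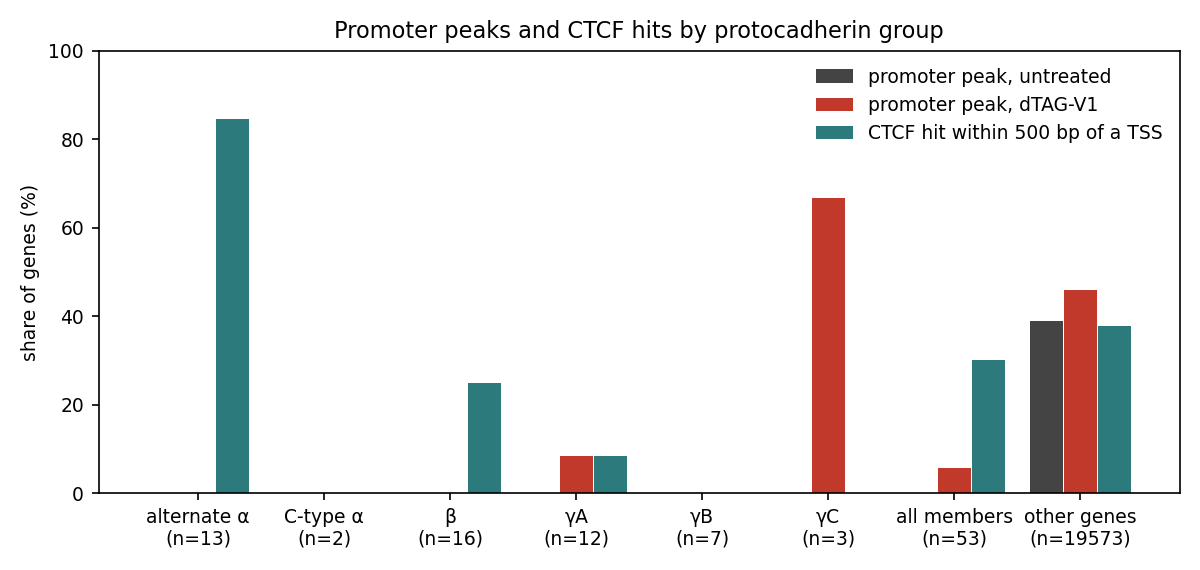
Share of genes (%) with a promoter peak in the untreated list (dark grey), with one in the dTAG-V1 list (red) and with a CTCF hit at p 1e-05 within 500 bp of a transcription start (green), for each protocadherin group, all 53 members and 19573 other protein-coding genes. CTCF hits were most frequent in the alternate α group, with 11 of 13 genes, and promoter peaks were seen in the γA and γC groups alone.

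The promoter peak of PCDHGA11 was the strongest of the 3. It lies at chr5:141420785-141421454, has a score of 117 and ranks 17083 of 35287 in the dTAG-V1 list, near the middle. The score is the integer that MACS2 wrote from the q-value, and it is read within a list only. The centre of the peak lies 69 bp downstream of the nearest start of PCDHGA11 and falls within its UTR. The peak of PCDHGC4 lies at chr5:141484716-141485114, 82 bp upstream of a start, with a score of 55 and rank 27629. The peak of PCDHGC3 lies at chr5:141475430-141475928, 268 bp upstream of a start, with a score of 46 and rank 29880. PCDHGC3 and PCDHGC4 were therefore both in the lower part of the list, with 84.7% and 78.3% as their positions from the top. Because the γ genes share their constant exons, these peaks also lie within introns of the γ genes that start further upstream. When the dTAG-V1 list was cut to as many peaks as the untreated list holds, PCDHGA11 alone kept its promoter peak.

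The peaks at the 3 promoters lacked a CTCF hit at p 1e-05. At the looser p 5e-05, the peak of PCDHGA11 held a hit of 10.83 bits, 419 bp from the summit, and the peaks of PCDHGC3 and PCDHGC4 held none. The SBS matrices, which read NGACTACATTTCCCAGNNTNCCN and CATTTCCCAGNNTCCCTT, gave a hit at p 1e-05 in the peaks of PCDHGA11 and PCDHGC4 and none in that of PCDHGC3. That of PCDHGC4 scored 10.05 bits and lay 69 bp from the summit, and that of PCDHGA11 scored 10.07 bits and lay 296 bp from it. In the whole dTAG-V1 list, 16.9% of peaks had an SBS hit at this threshold.

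What the 3 promoters had in common was the pattern CGCTGNNNNCCAAT shown above. CGCTG contains the letters CGCT, around which the conserved protocadherin element is built. Whether it forms that element in these 3 promoters was not tested. CCAAT is the core letters of the CCAAT box, which the factor NF-Y is known to bind. The pattern was found by listing every pair of 5-letter words, up to 10 letters apart, that all 3 promoters hold at the same spacing. This gave 3 overlapping pairs from the same stretch, and the pair with the shortest gap was used. Since these promoters were chosen for their peaks, the presence of the pattern in them is a description. It was then looked for elsewhere, on both strands. Between the first and the last member there were 3 further occurrences, of which 1 lay in a peak of the dTAG-V1 list and 0 in a peak of the untreated list. On chromosome 5 outside the span it occurred 40 times, at promoters or elsewhere, and 0 of these lay in a peak of either list. With 3 further occurrences, nothing is read from this about a link between the pattern and the peaks. The distance from the pattern to the summit of its peak was 28 bp at PCDHGA11, 57 bp at PCDHGC3 and 65 bp at PCDHGC4.

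The further occurrence within a peak lies 4334 bp upstream of PCDHGA1, in the peak at chr5:141326076-141326403, which has a score of 60 and rank 26498 in the dTAG-V1 list. The pattern starts 34 bp from the summit. The centre of this peak is 2 bp upstream of the start of ENSG00000272070, a gene of the annotation that is not a member. Apart from the 3 promoter peaks, it was thus in 1 of the 3 dTAG-V1 peaks between the first and the last member. The pattern was rare in the lists, with 15 of 35287 dTAG-V1 peaks (0.0425%, the 3 promoter peaks included) and 6 of 20429 untreated peaks (0.0294%). The share between the first and the last member rests on 1 peak, so no enrichment is read from it. The other 2 occurrences had no peak in either list. These lie 45 bp upstream of a start of PCDHGA4 and 35 bp downstream of a start of PCDHGA12. The letters alone therefore did not separate the γ promoters with a peak from those without.

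**Figure D2:**
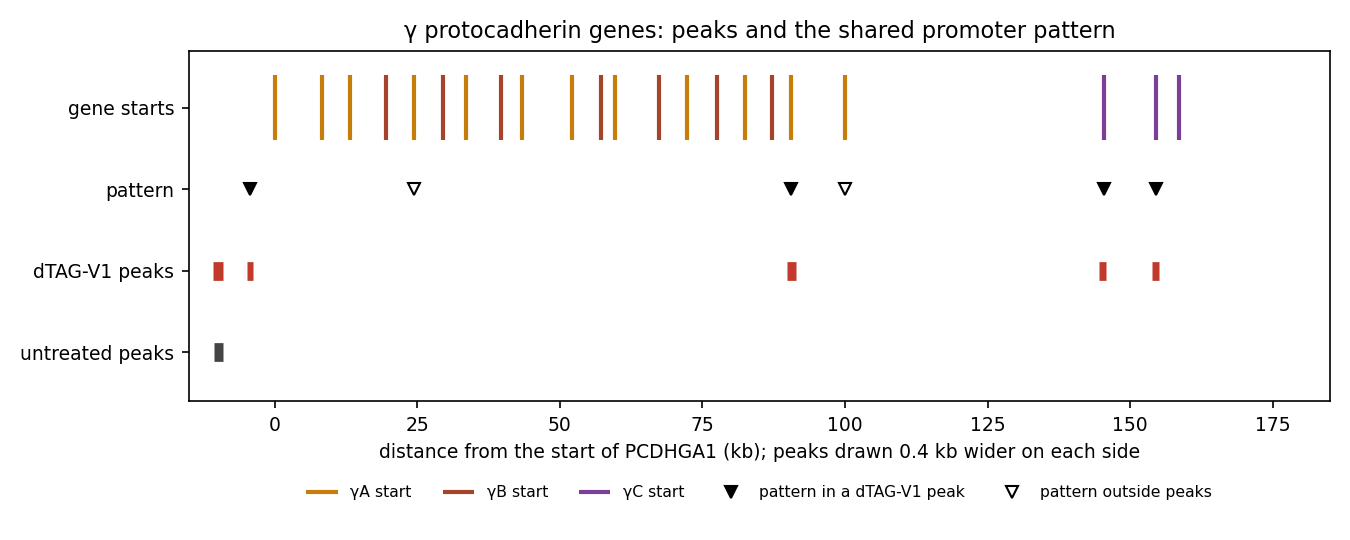
The γ protocadherin genes, with distance from the start of PCDHGA1 (kb) on the horizontal axis. Rows show gene starts by group, the 6 occurrences of the pattern (filled, within a dTAG-V1 peak; open, outside peaks) and the peaks of each list, drawn 0.4 kb wider on each side. Of the 5 dTAG-V1 peaks shown, 4 hold the pattern, 3 of them being the promoter peaks from which it was read, and the remaining peak, at TAF7, is the one that the untreated list also holds.

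Among promoter sequences of RefSeq (GRCh38.p14, 250 bases before to 50 after a start), 47 of the 53 members were matched, with 52 promoters. CGCT occurred on either strand in 51 of these 52 promoters (98.1%) and in 80.0% of 21519 promoters of other protein-coding genes. CGCTG occurred in 46 of 52 (88.5%) and in 56.6% of the others. Apart from the 3 genes from which it was read, the whole pattern occurred in 1 of 44 members, PCDHGA4, and in 19 of 15231 other genes (0.125%). Of these 19 genes, 9 (47.4%) had a promoter peak in the dTAG-V1 list and 8 (42.1%) in the untreated list. These shares are close to the 45.9% and 38.9% of all 19573 other protein-coding genes. CCAAT by itself was no more frequent in members, at 32.7% against 34.8%.

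The member promoters were also poor in G and C. Their median GC content was 40.7%, with a range from 32.3% to 66.0%, against a median of 62.7% in the other promoters. Genes were split at 50% GC, a limit set after the values were seen. Of the 39 members below the limit, 0 had a promoter peak without treatment and 1 (2.56%) had one in the dTAG-V1 list, whereas 16.3% and 21.1% of 2377 other genes below it had one. Of the 8 members at or above the limit, 0 and 2 (25.0%) had one, against 45.6% and 53.4% of 12854 other genes. PCDHGC3 and PCDHGC4 were among the GC-rich members, with 59.0% for PCDHGC3 and with 60.7% and 62.3% for the 2 RefSeq starts of PCDHGC4, and PCDHGA11 was not, at 44.3%. The C-type α promoters were as rich, with 66.0% for PCDHAC1 and 63.0% for PCDHAC2, and had no peak. Within each band the share of members with a peak was thus below that of the other genes. What part GC content has in the low number of promoter peaks was not tested.

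Because the members are paralogs and the authors kept uniquely mapped reads, the uniqueness of their promoter sequence was measured. Over the promoter windows, a median of 99.5% of stretches of 50 bases occurred once in the genome, against 97.9% in 200 other promoters. The lowest values were 74.4%, for PCDHB8 and PCDHB13. No member promoter was thus largely repeated sequence.

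The distance to the nearest peak gives the same picture gene by gene. In the untreated list, the median distance from a member's starts to the nearest peak centre was 97.0 kb, against 9.63 kb for the other genes, and the nearest member was PCDHGA1 at 9.87 kb. In the dTAG-V1 list the medians were 60.5 kb and 2.62 kb. The alternate α genes lay 51.7 to 148 kb from a peak of the dTAG-V1 list and the β genes 10.0 to 138 kb. The γC genes were the closest, with PCDHGC5, which had no promoter peak, 4.17 kb from the peak of PCDHGC4. In all, 8 of 53 members were within 10 kb of a dTAG-V1 peak (15.1%), against 62.1% of the other genes.

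**Figure D3:**
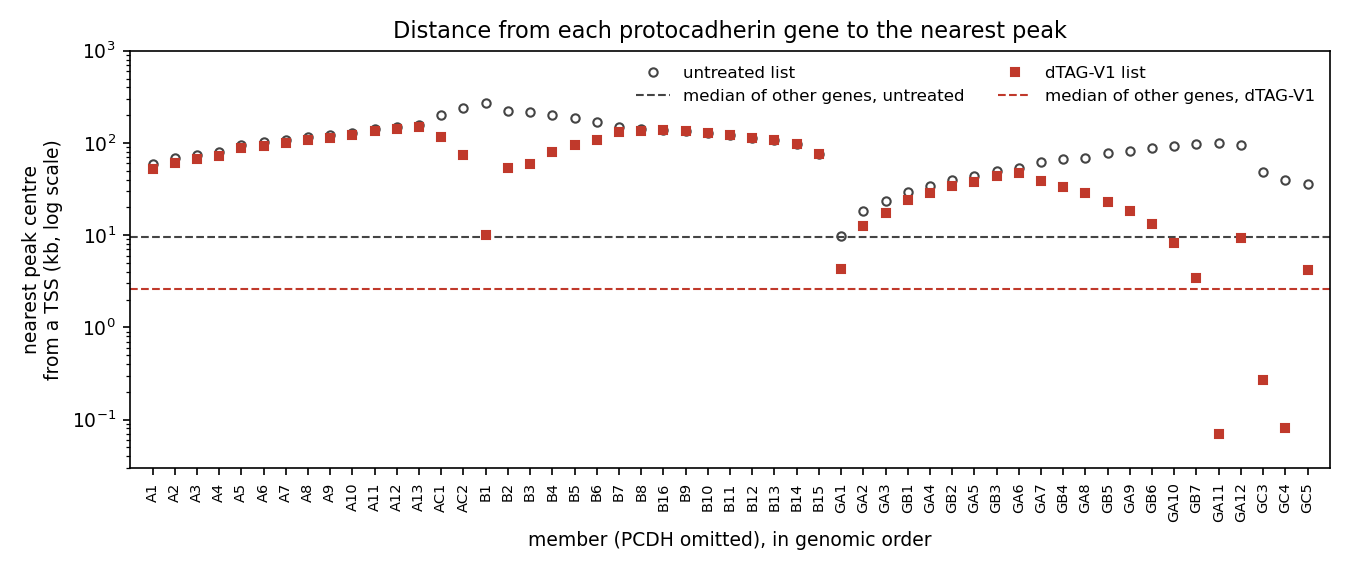
Distance (kb, log scale) from each of the 53 members to the nearest peak centre of the untreated list (open circles) and of the dTAG-V1 list (red squares), in genomic order. Dashed lines give the medians of 19573 other protein-coding genes (9.63 kb untreated, 2.62 kb dTAG-V1), and in the dTAG-V1 list PCDHGA11, PCDHGC3 and PCDHGC4 are the 3 members below their line.

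Considering the clusters by region, the α and β genes held no peak at all. The α genes cover 226.2 kb and the β genes 198.0 kb, with 0 peaks in both lists. The γ genes cover 182.5 kb, with 0 untreated peaks and, as described above, 3 dTAG-V1 peaks. From the first to the last member there was 1 peak in the untreated list and there were 6 in the dTAG-V1 list, that is 1.38 and 8.25 peaks per Mb, against 6.74 and 11.6 over the whole lists. The stretch without a peak that contains all α and β genes ran for 594.3 kb in the untreated list, and 4.22% of the 20406 intervals between neighbouring peaks were longer. The dTAG-V1 list had 2 peaks in this stretch. The first, at chr5:140734235-140734553, lies upstream of PCDHA1, with a score of 60, and the second lies between PCDHAC2 and PCDHB1. The centre of the first is 1531 bp upstream of a start of ENSG00000250515, which is not a member. From the first to the second there were 306.9 kb without a peak, and from the second to TAF7 279.3 kb.

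**Figure D4:**
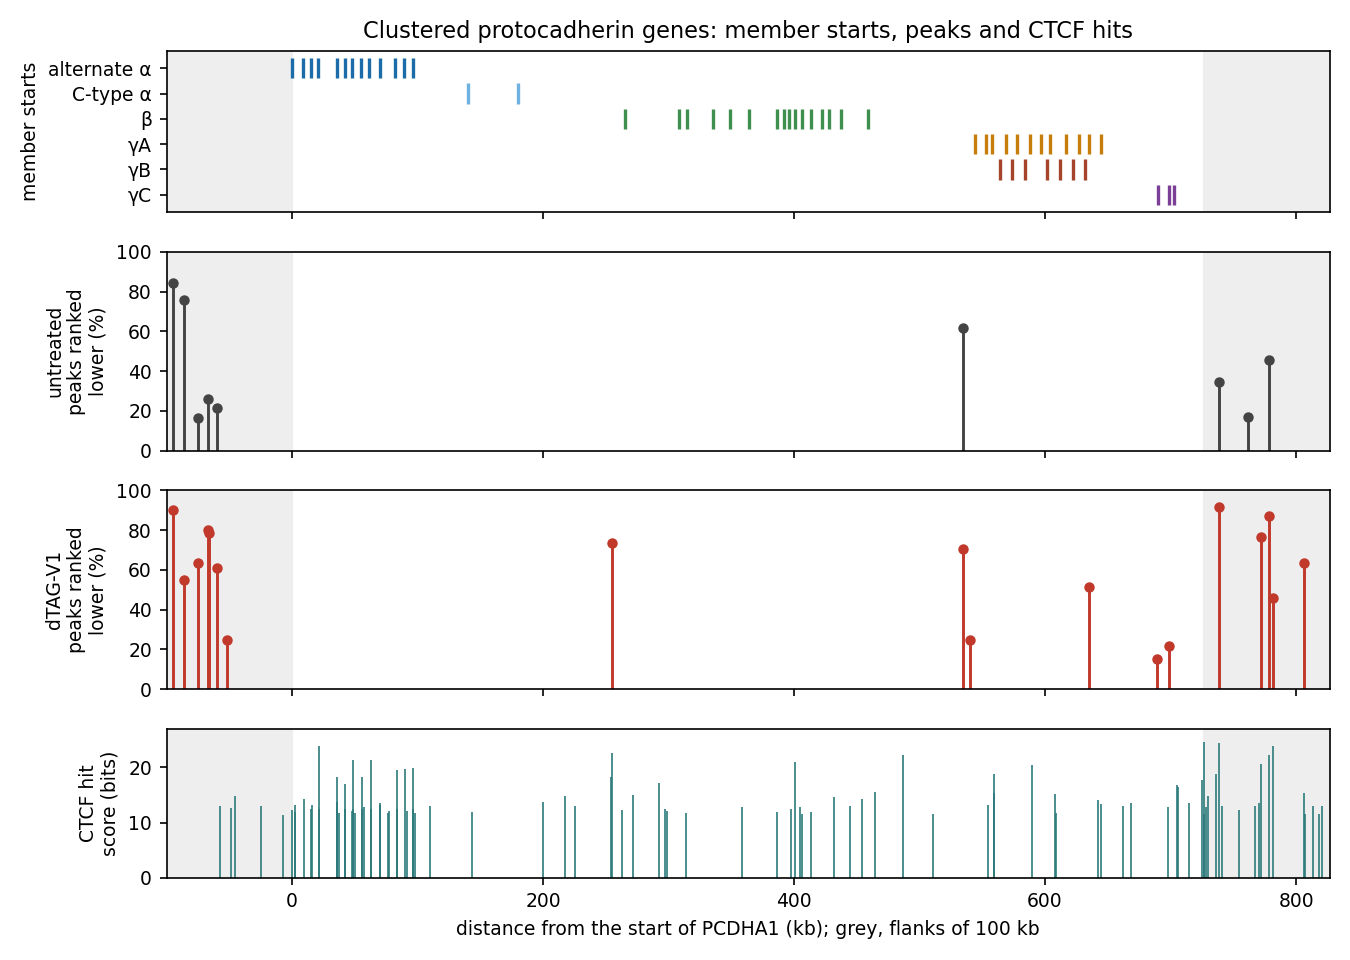
Member starts by group, peaks of each list and CTCF hits at p 1e-05 along the clusters, as distance from the start of PCDHA1 (kb), with the flanks of 100 kb in grey. Stems show the percentage of the list's peaks that rank lower by score, or the score of the CTCF hit in bits. The α genes hold 39 CTCF hits over 226.2 kb and the β genes 15 over 198.0 kb, both without a peak, and most peaks of both lists lie in the flanks.

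The peak between PCDHAC2 and PCDHB1 was the strongest dTAG-V1 peak between the first and the last member. It has a score of 203 and ranks 9310 of 35287, it starts 28846 bp after the last α exon, and it ends 9889 bp before PCDHB1. Its centre is annotated as intergenic and lies 434 bp upstream of a start of ENSG00000288892. The best CTCF hit in it scored 22.67 bits on the minus strand, with its middle base at the summit (0 bp away), and the same stretch also passed the threshold on the plus strand. A second CTCF hit of 18.28 bits on the minus strand, at 141040360 to 141040378, lay outside the peak and had no peak in either list. An enhancer with a pair of CTCF sites is known between the α and the β genes and acts on the α promoters, and whether these hits belong to it was not tested.

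In contrast, the alternate α genes were rich in CTCF hits near their starts and had no peaks, whereas the 2 C-type α genes had neither at p 1e-05. Within 500 bp of a start, 16 of 53 members (30.2%) had a CTCF hit at p 1e-05, against 37.8% of the other genes. Of these members, 11 were alternate α genes, 4 were β genes and 1 was a γA gene, PCDHGA12. None of the 16 had a promoter peak in either list, whereas 51.1% of the 7401 other genes with such a hit had one in the dTAG-V1 list and 41.9% in the untreated list. SBS hits at p 1e-05 were found within 500 bp of a start in 14 of 53 members (26.4%), against 56.1% of the other genes.

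The hits fell into positional classes by group. In the alternate α genes, the best hit lay 32 bp upstream of a start in PCDHA10, 40 bp upstream in PCDHA1, and between 423 and 488 bp downstream, within the coding part of the variable exon, in the other 9. In 6 of these, PCDHA3, PCDHA4, PCDHA7, PCDHA8, PCDHA9 and PCDHA11, the hit was the same 19 letters on the minus strand, scored 12.44 bits and lay 423 to 463 bp after a start. In the 4 β genes with a hit, it lay on the plus strand from 44 to 77 bp upstream of a start, and PCDHB9 had the best, with 20.98 bits. At p 5e-05 the counts rose to 13 of 13 alternate α genes, 2 of 2 C-type α genes, 12 of 16 β genes and 33 of 53 members (62.3%).

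Stronger hits, of at least 16 bits, were also counted, a limit set after the values were seen. There were 20 between the first and the last member, 15 on the plus strand and 5 on the minus strand. Of these, 9 lay in the variable exons of alternate α genes, all on the plus strand and 461 to 626 bp after a start, in PCDHA4 to PCDHA9 and PCDHA11 to PCDHA13. The highest of the 9 was that of PCDHA4, with 23.81 bits. PCDHA7 and PCDHA9 each scored 21.4 bits. The highest of all 20 scored 24.63 bits on the minus strand, at 141512500 to 141512518, close to the last end of the γ genes. Of the 20, only the hit in the peak between PCDHAC2 and PCDHB1 lay in a peak, of the dTAG-V1 list (5.0%), whereas 527 of 2116 such hits on chromosome 5 outside the span (24.9%) did. For all hits at p 1e-05, the counts were 1 of 77 (1.3%) and 793 of 12477 (6.36%).

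The remaining peaks between the first and the last member belonged to TAF7, which encodes a subunit of the general transcription factor TFIID and lies between the β and the γ genes. Its promoter peak was the only one in this stretch that both lists shared. In the untreated list it lies at chr5:141320228-141321064, with a score of 250 and rank 7774 of 20429. In the dTAG-V1 list it lies at chr5:141320176-141321139, with a score of 187 and rank 10464 of 35287. The dTAG-V1 peak held an SBS hit of 12.89 bits at p 1e-05, 477 bp from the summit, and lacked a CTCF hit at this threshold. The SBS hit starts at 141321073, just beyond the end of the narrower untreated peak, so no difference between the lists is read from it. SLC25A2, which encodes a mitochondrial ornithine carrier, and the pseudogenes PCDHB17P, PCDHB18P, PCDHB19P and PCDHGB8P had no promoter peak in either list.

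Most peaks of the span lay in its flanks. With the flanks, there were 9 untreated peaks, of which 8 overlapped a dTAG-V1 peak, and 18 dTAG-V1 peaks, of which 8 overlapped an untreated peak. Upstream of the α genes, the shared promoter of HARS1 and HARS2, which encode histidyl-tRNA synthetases, had a score of 1797 and rank 3139 in the untreated list and a score of 467 and rank 3574 in the dTAG-V1 list. ZMAT2 had scores of 575 and 127, with ranks 4930 and 15840. The vault RNA genes VTRNA1-1, VTRNA1-2 and VTRNA1-3, which lie between ZMAT2 and PCDHA1, had a promoter peak in both lists. Without treatment the scores were 56, 75 and 66, all in the lower part of the list, at 83.6%, 73.8% and 78.3% from the top. With dTAG-V1 they were 155, 251 and 146, at 36.8%, 20.0% and 39.2% from the top of that list. Scores are read within a list only, so their sizes are not compared between lists.

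Downstream of the γ genes, all 5 dTAG-V1 peaks of the flank lay within DIAPH1, which encodes a formin that assembles actin, and all 5 held a CTCF hit at p 1e-05. The strongest lies at chr5:141524492-141525113, with a score of 597, rank 2966 and a hit of 24.35 bits whose middle is 12 bp from the summit. The next had a score of 355 and rank 4573, at chr5:141564096-141564494, in an intron of DIAPH1 and an exon of DIAPH1-AS1. A peak at a further DIAPH1 start, at chr5:141557636-141558106, had a score of 222 and rank 8360. The untreated list had 3 peaks there, with scores of 96, 58 and 135 and ranks 13404, 16944 and 11114. Of these, 2 held a CTCF hit at p 1e-05. Over the span, the best CTCF hits at p 1e-05 lay on the minus strand in 5 of the 6 dTAG-V1 peaks with a hit and in both of the 2 untreated peaks. CTCF hits at p 5e-05 were in 66.7% of the dTAG-V1 peaks of the span and 50.1% of all peaks of that list. For the untreated list these shares were 44.4% and 34.4%. At p 1e-05 the order turned round in the dTAG-V1 list, with 33.3% in the span and 37.5% in the whole list. In the untreated list the shares at p 1e-05 were 22.2% and 20.4%.

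Protocadherin genes outside the clusters, which have their own promoters and encode related adhesion proteins, were counted in the same way. Of 12 such genes with an annotated start, 3 (25.0%) had a promoter peak without treatment and 6 (50.0%) had one in the dTAG-V1 list, beside 38.9% and 45.9% of protein-coding genes outside the clusters. PCDH9 had the highest score of the 12 in both lists, 1275 without treatment (rank 3538) and 177 with dTAG-V1 (rank 11121). PCDH7 and PCDH15 also had a peak in both lists, and PCDH1, PCDH10 and PCDH20 in the dTAG-V1 list only, with scores of 121, 50 and 27. Of 12 genes whose products are known to act on the clusters, among them CTCF, the cohesin subunits and SETDB1, 9 had a promoter peak in both lists. CTCF itself had scores of 6987 and 1414, with ranks 2026 and 1976. The 3 without a peak were RAD21, NIPBL and SMCHD1.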

How the data were processed

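Peaks of ZNF143 ChIP-seq made with the Proteintech antibody were analysed for 4 untreated and 4 dTAG-V1-treated samples of the 14 samples of the series. The 6 CTCF samples were not analysed here. Per the methods, the authors mapped read pairs to hg38 with bwa mem, kept uniquely mapped proper pairs, removed duplicates with Picard and called narrow peaks with MACS2, naming no control library, and kept peaks outside the blacklist. The methods describe keeping peaks found in each of the 4 untreated replicates but in any of the 4 dTAG-V1 replicates, so the lists were not made by the same rule, and the dTAG-V1 list can be longer for that reason alone. The deposited lists hold a score (an integer written from the q-value), a fold enrichment, which is a ratio to the local background, a −log10 q-value and a summit. Values were compared within a list only. The labels call the first group untreated, although its peaks are named after DMSO.

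The reference was hg38 with GENCODE release 44. CTCF and SBS matrices were learned from merged peaks on even-numbered autosomes, which leaves out chromosome 5, over 10 iterations with a pseudocount of 0.8, from sites at p 1e-06. Sequences were searched at p 5e-05 and 1e-05, and CTCF hits on both strands at the same start were counted once. Lists overlapped at 1 bp or more. The scan was tested on simulated data. Sequences were read with samtools 1.23.1 and pysam 0.24.0, and scans were compiled with numba 0.67.0 under Python 3.11.15, with pandas 2.3.3 and numpy 2.4.6 for tables.

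The members and the gene lists were chosen with earlier results of these data known. Named with values were members with a promoter peak, peaks at promoters of other genes of the span and the 3 highest peaks of each list. CTCF hits were chosen for print as examples of each positional class. HDAC3, listed among the genes of the span, lies outside it and was left out. The pattern CGCTGNNNNCCAAT, the limits of 16 bits and 50% GC, and the counts of hits within peaks were added after the data were seen. Alternatives concerned the starts, the window, the peak position, the q-value, the list length, the overlap, the flank and the motif search. Intervals used for shares were 95% Wilson intervals and cover counting error only.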

Additional observations from a re-analysis of the deposited data

How the results depend on the processing

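Over 17 results and 68 alternatives, 46 values stayed within 1.5 times the count, or within the interval of the share, and 22 moved. No paired analysis was possible because each list pools its replicates, and for the same reason no replicate could be left out. The count of 0 members in the untreated list stayed at 0 under every alternative run for it. Cutting the dTAG-V1 list to the length of the untreated list took members with a promoter peak, and those in the dTAG-V1 list only, from 3 to 1. Without flanks, the peaks of the span fell to 1 untreated, 6 dTAG-V1 and 1 shared, and with flanks of 200 kb there were 15 untreated and 13 shared. CTCF hits depended on the search. With a fixed CTCF consensus in place of the matrix, the shares of peaks were 11.1% (untreated) and 16.7% (dTAG-V1), and 7 members had a promoter hit. At p 1e-05 these were 33.3% of dTAG-V1 peaks and 16 members. For SBS the shares at p 1e-05 were 0% (untreated) and 16.7% (dTAG-V1), with a fixed SBS consensus 0% in both, and within 100 bp of the summit 22.2% in the dTAG-V1 list. The share of best CTCF hits on the plus strand was 25% in the untreated list, from 4 peaks, and became 0% at p 1e-05, within 100 bp of the summit and with the fixed consensus. In the dTAG-V1 list it was 41.7% and became 16.7% at p 1e-05 and 0% with the fixed consensus. Peaks of low score, such as those of PCDHGC3 and PCDHGC4, can be called in a list or missed by a small difference in depth.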
